A study of Homo sapiens with 12 samples.

Results

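The genes described here are 9 members of the activator protein-1 (AP-1) transcription factors: FOS, FOSB, FOSL1 and FOSL2 of the FOS family, JUN, JUNB and JUND of the JUN family, and ATF3 and BATF3 of the related ATF and BATF families. They were taken by gene symbol from a table of 58302 genes, and each of the 9 symbols matched 1 gene. RNA was sequenced from BxPC-3 and CFPAC-1, human pancreatic ductal adenocarcinoma cell lines, and from BxPC-3-GR and CFPAC-1-GR, their sublines selected for resistance by long culture in escalating doses of gemcitabine (GEM). GEM is a nucleoside analogue that blocks DNA synthesis. Each of the 4 lines had 3 libraries, made from total RNA of subconfluent cells, and each resistant line is a single derivation. For the sequenced cells the methods name no other treatment, and do not say whether the resistant lines were in GEM at harvest. The labels describe the morphology of BxPC-3-GR as mesenchymal and that of the other lines as epithelial. The comparisons addressed how the resistant lines differed from their parents, and how the lines differed from each other.

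AP-1 is a dimer of basic leucine zipper proteins. FOS proteins need a partner, usually a JUN protein, to bind DNA, whereas JUN proteins can also pair with each other, and ATF3 and BATF3 join JUN proteins in further combinations. Growth factor signals through RAS and the ERK and JNK kinases raise the transcription of several of these genes and the activity of their products. In carcinoma cells AP-1 is known for its control of proliferation, invasion and matrix-degrading proteases.

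The promoters of JUNB, JUND, JUN and FOSL2 are printed because they are the members with a matched promoter that averaged 1 FPKM or more in every line. The RefSeq promoter table (GRCh38.p14) held 7 of the 9 members; FOSL1 and BATF3 were not matched. Each run gives the 250 bases before the RefSeq start, 5′ to 3′ on the gene's strand. For FOSL2 it also gives the first 11 bases from that start, up to the end of a motif. Starts named with the motifs are RefSeq starts. Those of FOSL2 and JUN lie inside the gene positions given below from GENCODE, and so do their printed runs. Capitals mark the motifs found.
JUNB, chr19:12791236-12791485, plus strand: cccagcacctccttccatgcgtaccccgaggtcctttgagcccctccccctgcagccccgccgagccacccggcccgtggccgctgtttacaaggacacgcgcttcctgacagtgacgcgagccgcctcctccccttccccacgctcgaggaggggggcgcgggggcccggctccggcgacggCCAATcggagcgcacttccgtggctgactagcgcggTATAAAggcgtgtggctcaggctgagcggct
JUND, chr19:18281623-18281872, minus strand: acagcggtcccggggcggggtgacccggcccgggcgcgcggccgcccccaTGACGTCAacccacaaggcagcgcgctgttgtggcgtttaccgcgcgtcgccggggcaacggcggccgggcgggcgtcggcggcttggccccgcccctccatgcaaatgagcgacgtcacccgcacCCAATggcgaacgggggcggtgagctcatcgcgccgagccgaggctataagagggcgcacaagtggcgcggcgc
JUN, chr1:58784048-58784297, minus strand: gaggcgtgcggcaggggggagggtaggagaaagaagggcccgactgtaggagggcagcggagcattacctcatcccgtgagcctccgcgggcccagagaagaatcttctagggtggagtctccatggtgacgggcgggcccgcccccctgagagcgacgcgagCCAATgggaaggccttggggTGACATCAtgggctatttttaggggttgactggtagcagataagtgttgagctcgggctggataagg
FOSL2, chr2:28392608-28392868, plus strand: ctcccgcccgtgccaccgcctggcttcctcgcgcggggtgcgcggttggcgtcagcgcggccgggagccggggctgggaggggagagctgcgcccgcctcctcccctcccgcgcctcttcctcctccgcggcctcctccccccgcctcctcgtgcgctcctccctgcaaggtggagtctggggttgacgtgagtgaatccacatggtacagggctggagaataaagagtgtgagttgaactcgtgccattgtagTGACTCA
The motifs searched, on both strands, were the AP-1 element TGACTCA, the cyclic AMP response element TGACGTCA, the JUN site TGACATCA, the TATA box TATAAA and the CCAAT box CCAAT. None of these letter strings overlapped another in the printed runs. In 35116 windows of 300 bases in the same table, they occurred in 4.95%, 1.85%, 2.61%, 11.5% and 34.6% of windows. JUNB carried a TATA box 31 bases and a CCAAT box 67 bases before its start. JUND carried a cyclic AMP response element 200 bases and a CCAAT box 74 bases before its start, and JUN a CCAAT box 87 bases and a JUN site 67 bases before its start. FOSL2 carried the AP-1 element from base 5, counted from its RefSeq start. Of the members not printed, FOS and FOSB held a TATA box 33 and 30 bases before their starts, and ATF3 held a JUN site 123 bases and a CCAAT box, on the opposite strand, 25 bases before 1 of its starts.

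The deposited values were FPKM, fragments scaled by gene length and by library depth, so levels of different genes are compared here per length. The steps between low values implied 12600000 to 25200000 mapped fragments a library. Libraries of 1 line correlated with Spearman's rho of 0.965 to 0.981 across genes. Of 7 ductal epithelial markers, 6 in BxPC-3 and 7 in each other line had a mean of at least 1 FPKM; MUC1 was the marker below it in BxPC-3. PTPRC, the pan-leukocyte marker, was listed at 0 in every library. CD68, another of the 4 leukocyte markers, averaged 31.97 FPKM in CFPAC-1, 11.3 FPKM in CFPAC-1-GR, 3.28 FPKM in BxPC-3 and 1.06 FPKM in BxPC-3-GR, and the summed level of the 4 ranged from 0.916 to 36.98 FPKM over the libraries. CD68 was thus lower in both resistant lines than in their parents, as FOSL1 was, and its part in the results was not tested. The summed level of 6 fibroblast markers did not exceed 4.12 FPKM. CDH1, the epithelial cadherin, had 43.0 ± 10.4 FPKM in BxPC-3 and 45.3 ± 11.6 FPKM in BxPC-3-GR (SD, n = 3), so the mesenchymal label of BxPC-3-GR did not go with a low CDH1 level. These are bulk RNA libraries, in which fewer expressing cells and less RNA per cell cannot be told apart. No source says that the replicates were separate cultures, so p-values measure the spread between these libraries, which may be technical.

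Changes were tested with limma on log2(FPKM + 1) and a gene was tested when its FPKM in the compared libraries averaged 1 or more. A gene was called significantly differentially expressed (SDE) when the adjusted p was below 0.05 and log2FC exceeded 1 in size, and log2FC on this scale understates the change of low genes. In BxPC-3-GR, 5 members could be tested and 2 were SDE, FOSL1 lower and FOSL2 higher, against 7.76% of all 11710 genes tested, 4.14% called higher and 3.62% called lower. In CFPAC-1-GR, 7 could be tested and 4 were SDE, all lower (FOSL1, JUNB, JUND and BATF3), against 32.2% of 12051 genes called in either direction and 11.7% called lower. FOS, FOSB, ATF3 and BATF3 in BxPC-3-GR and FOSB and ATF3 in CFPAC-1-GR were below the minimum and are given as values. The ranges of resistant and parental libraries were separate for 5 of the 5 tested members in the BxPC-3 pair, against 66.1% of tested genes, and for 5 of the 7 tested in the CFPAC-1 pair, against 82.1%. FOS, 1 of these 7, averaged 0.926 FPKM in CFPAC-1-GR and passed the minimum only through CFPAC-1, so it adds nothing to the counts of the 7. The ranges of the 4 untested members of the BxPC-3 pair were separate too, as was that of FOSB, 1 of the 2 untested in the CFPAC-1 pair. The shares given cover tested genes only, and none was computed for genes below the minimum, so these untested members support no count. An exact permutation test of 3 against 3 libraries cannot give a p below 0.1.

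**Figure D1:**
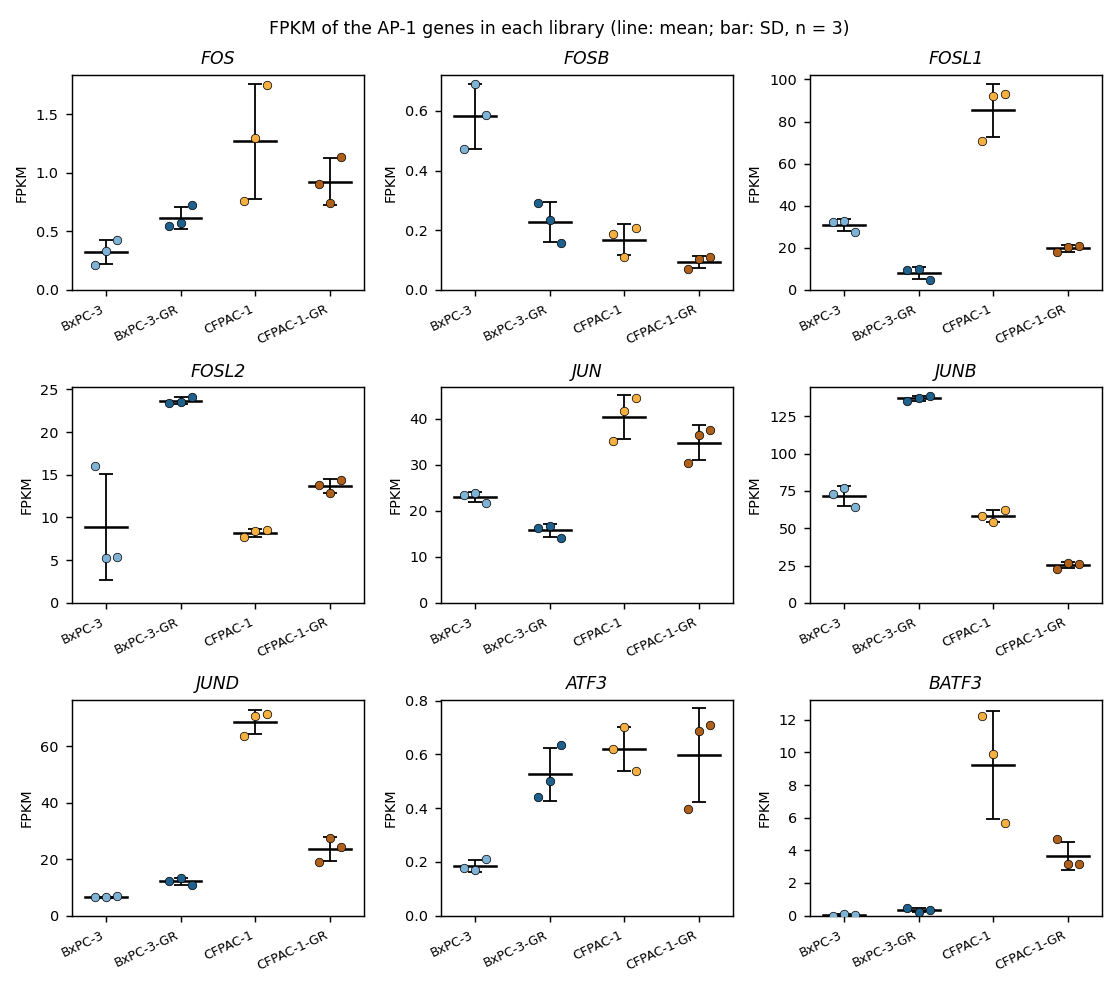
FPKM of the 9 AP-1 members in every library, by line, on linear axes in FPKM that start at 0, with 1 point a library, a line at the mean and a bar for the SD (n = 3). FOSL1 sits lower in both resistant lines than in their parents, and JUNB and JUND sit higher in BxPC-3-GR and lower in CFPAC-1-GR.

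FOSL1, which encodes the FRA1 protein (ENSG00000175592, chr11:65892049-65900573, minus strand, GRCh38), fell in both resistant lines. Its levels were 32.03, 32.57 and 27.47 FPKM in BxPC-3 and 9.63, 9.85 and 4.87 FPKM in BxPC-3-GR, and the mean was 3.78-fold lower in the resistant line. The fitted log2FC was -1.85 ± 0.25 (SE, limma adjusted p = 0.0011). In CFPAC-1 the levels were 71.0, 92.0 and 92.9 FPKM, and in CFPAC-1-GR 17.9, 20.4 and 20.98 FPKM, a 4.32-fold lower mean. This log2FC was -2.05 ± 0.12 (SE, limma adjusted p = 1.0e-05). All resistant libraries lay below all parental libraries in both pairs, and replicate 3 of BxPC-3-GR was the lowest of the 12. The call held after each library was left out, with a range of -2.00 to -1.56 in the BxPC-3 pair. The difference of the log2FCs between the pairs was -0.20 ± 0.30 (SE, limma adjusted p = 0.55), which does not show that the falls were equal. A test against a fold of 2 (limma treat) left FOSL1 called in CFPAC-1-GR and not in BxPC-3-GR (adjusted p = 0.17).

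FOSL2, which encodes the FRA2 protein (ENSG00000075426, chr2:28392448-28417312, plus strand), was higher in both resistant lines. Its levels were 16.1, 5.24 and 5.38 FPKM in BxPC-3 and 23.4, 23.5 and 24.2 FPKM in BxPC-3-GR, where the mean was 2.66-fold higher. The log2FC of 1.49 ± 0.39 (SE, limma adjusted p = 0.017) was called SDE. Replicate 1 of BxPC-3 stood about 3 times above the other BxPC-3 libraries, and 11 of 5665 genes that averaged 5 FPKM or more were more than 2 times above both others in this library, against 4 to 14 in the other 11. Without it the log2FC was 1.97 (adjusted p = 5.0e-05). The call was lost without replicate 2 of BxPC-3 (1.24, adjusted p = 0.051), without replicate 3 of BxPC-3 (1.26, adjusted p = 0.054) and without replicate 3 of BxPC-3-GR (1.48, adjusted p = 0.052). In CFPAC-1 the levels were 7.70, 8.36 and 8.58 FPKM, and in CFPAC-1-GR 13.8, 12.8 and 14.4 FPKM, again without overlap. The log2FC of 0.67 ± 0.07 (SE, limma adjusted p = 1.4e-04) lay under the SDE size threshold. The difference between the pairs, -0.82 ± 0.42 (SE, limma adjusted p = 0.10), was not called, but was -1.296 (limma adjusted p = 8.2e-07) without replicate 1 of BxPC-3.

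JUNB, a JUN-family member often set against JUN in growth control (ENSG00000171223, chr19:12791496-12793315, plus strand), moved in opposite directions in the pairs. It had 73.0, 77.2 and 64.2 FPKM in BxPC-3 and 135, 138 and 138 FPKM in BxPC-3-GR, a 1.92-fold higher mean with no overlap. Its log2FC was 0.93 ± 0.08 (SE, limma adjusted p = 1.5e-04), under the SDE size threshold. In CFPAC-1 it had 58.4, 53.9 and 62.3 FPKM, and in CFPAC-1-GR 22.9, 26.7 and 25.9 FPKM, a 2.31-fold lower mean and a log2FC of -1.18 ± 0.09 (SE, limma adjusted p = 2.3e-05), a call that was lost after a correction for GC content and length (-0.12). The difference between the responses was -2.11 ± 0.12 (SE, limma adjusted p = 5.1e-08). An exon of JUNB overlaps HOOK2 on the opposite strand. No source says whether strand was used in counting, so their reads cannot be told apart there. HOOK2 had a mean of 2.77 FPKM in BxPC-3 and 3.04 FPKM in BxPC-3-GR, and of 0.359 FPKM in CFPAC-1 and 0.737 FPKM in its resistant line.

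JUND, the JUN member that is usually expressed without stimulation (ENSG00000130522, chr19:18279760-18281622, minus strand), showed the same opposition. Its levels were 6.48, 6.45 and 6.79 FPKM in BxPC-3 and 12.3, 13.2 and 10.8 FPKM in BxPC-3-GR, with a log2FC of 0.79 ± 0.08 (SE, limma adjusted p = 3.2e-04), under the SDE size threshold. They were 63.5, 70.7 and 71.5 FPKM in CFPAC-1 and 19.1, 27.4 and 24.1 FPKM in CFPAC-1-GR, with a log2FC of -1.52 ± 0.13 (SE, limma adjusted p = 4.5e-05), a call also lost after that correction (-0.45). The resistant BxPC-3-GR libraries were all above their parents and the resistant CFPAC-1-GR libraries all below theirs. The difference between the responses was -2.30 ± 0.16 (SE, limma adjusted p = 2.7e-07). Among the 6 members in this fit, JUNB, JUND and BATF3 were called, against 38.0% of 12210 genes, with negative differences, as for 14.4% of genes. BATF3 entered the fit only through the CFPAC-1 lines, and without it 2 of 5 were called.

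JUN, the founding member of its family (ENSG00000177606, chr1:58780788-58784327, minus strand), differed less. Its levels were 23.4, 23.8 and 21.8 FPKM in BxPC-3 and 16.3, 16.7 and 14.2 FPKM in BxPC-3-GR, a 1.46-fold lower mean without overlap. The log2FC of -0.52 ± 0.08 (SE, limma adjusted p = 0.0017) was under the SDE size threshold. CFPAC-1 had 35.1, 41.7 and 44.5 FPKM and CFPAC-1-GR 30.4, 36.5 and 37.6 FPKM, and these ranges overlapped. The log2FC was -0.21 ± 0.12 (SE, limma adjusted p = 0.15).

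The share of G and C bases in a gene's longest transcript moved with the responses of CFPAC-1-GR. Across 12030 genes with a known GC content, log2FC and GC content had a Spearman's rho of -0.78 in CFPAC-1-GR, and across 11685 genes it was 0.039 in BxPC-3-GR, as a description across genes that are not independent replicates. JUNB (64.9% GC) and JUND (69.7% GC) stood above 96.1% and 99.6% of the genes tested in CFPAC-1-GR in GC content. The 339 genes within 1 percentage point of JUNB had a median log2FC of -1.04 there, and the 37 genes near JUND a median of -1.05. After a spline correction for GC content and gene length, JUNB had a log2FC of -0.12 (limma adjusted p = 0.29) and JUND one of -0.45 (limma adjusted p = 0.026), and neither was SDE. FOSL1, with a median of -0.76 among its GC neighbours, was still SDE at -1.14 (limma adjusted p = 4.1e-04). JUN turned to 0.36 (limma adjusted p = 0.038). FOSL2 stayed above 0 and was not SDE, and the 846 genes near its GC content had a median of -0.26. The difference between the responses was -0.98 for JUNB (limma adjusted p = 3.6e-05), no longer past the size threshold, and -1.08 for JUND, still SDE. In BxPC-3-GR the corrected log2FCs of FOSL1, FOSL2, JUN, JUNB and JUND were -1.82, 1.49, -0.48, 0.89 and 0.66. The part of GC content in these results beyond the correction was not tested.

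**Figure D2:**
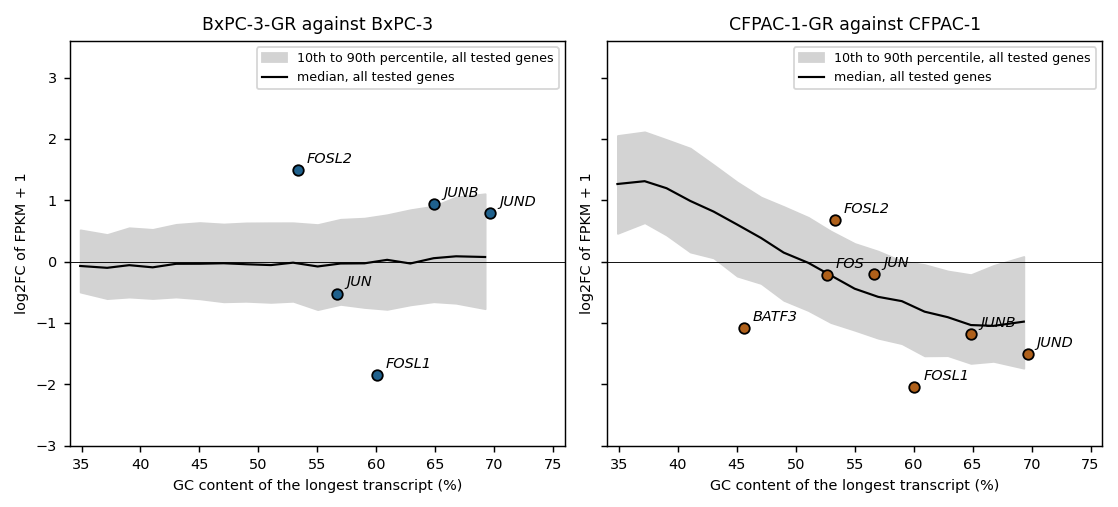
Fitted log2FC of FPKM + 1 against the GC percent of the longest transcript, in each resistant line against its parent. The black line is the median of all tested genes in bins of GC content, the grey band their 10th to 90th percentile, and the points are AP-1 members; in CFPAC-1-GR the median slopes down (Spearman's rho of -0.78) with JUNB and JUND at its GC-rich end, and in BxPC-3-GR it is flat (0.039).

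BATF3, a BATF-family partner of JUN proteins known from dendritic cell development (ENSG00000123685, chr1:212686418-212699985, minus strand), was found mainly in the CFPAC-1 lines. CFPAC-1 had 12.2, 9.88 and 5.65 FPKM and CFPAC-1-GR 4.67, 3.19 and 3.17 FPKM, a 2.51-fold lower mean with no overlap. The log2FC was -1.09 ± 0.26 (SE, limma adjusted p = 0.0068). The call was lost without replicate 1 of CFPAC-1 (-0.88, adjusted p = 0.020), the highest library. With the GC and length correction the log2FC was -1.47 (limma adjusted p = 0.0031), and the median of the 920 genes near its GC content was 0.52. In BxPC-3 the levels were 0, 0.0724 and 0.0623 FPKM, about 0, 4 and 3 fragments, and in BxPC-3-GR 0.465, 0.230 and 0.343 FPKM, about 32, 13 and 23 fragments. No fold is given against BxPC-3 because its counts are so low. The difference between the responses was -1.45 ± 0.30 (SE), given as a description because BATF3 passed the minimum in that fit only through the CFPAC-1 lines.

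FOS, the immediate-early gene that gives the FOS family its name (ENSG00000170345, chr14:75278774-75282230, plus strand), was low throughout. It had 0.215, 0.336 and 0.425 FPKM in BxPC-3 (about 12, 21 and 23 fragments) and 0.550, 0.575 and 0.726 FPKM in BxPC-3-GR (about 45, 40 and 58 fragments), without overlap. CFPAC-1 had 0.764, 1.298 and 1.75 FPKM and CFPAC-1-GR 0.902, 0.738 and 1.14 FPKM. These ranges overlapped, and the log2FC was -0.22 (limma adjusted p = 0.27).

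FOSB, a FOS-family member also known as an immediate-early gene (ENSG00000125740, chr19:45467995-45475179, plus strand), had its highest levels in BxPC-3. These were 0.471, 0.689 and 0.585 FPKM, against 0.291, 0.233 and 0.159 FPKM in BxPC-3-GR. CFPAC-1 had 0.187, 0.110 and 0.208 FPKM and CFPAC-1-GR 0.0694, 0.103 and 0.109 FPKM. The resistant libraries lay below the parental ones in both pairs. In the BxPC-3 pair this rested on about 45, 75 and 56 fragments in BxPC-3 against 41, 28 and 22 in BxPC-3-GR. In the CFPAC-1 pair it rested on about 20, 8 and 15 fragments in CFPAC-1 against 8, 10 and 9 in CFPAC-1-GR. The nearest libraries of that pair, at 0.110 and 0.109 FPKM, were barely apart.

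ATF3, a stress-induced factor that pairs with JUN proteins (ENSG00000162772, chr1:212565334-212620777, plus strand), had 0.178, 0.168 and 0.211 FPKM in BxPC-3 and 0.442, 0.501 and 0.635 FPKM in BxPC-3-GR. The fragments behind these values were about 12, 13 and 15 against 45, 44 and 64, and the means differed 2.83-fold. CFPAC-1 had 0.620, 0.702 and 0.538 FPKM, and CFPAC-1-GR 0.396, 0.686 and 0.709 FPKM, with overlap. With no minimum and a pseudocount of 0.1, added after seeing the data, ATF3 (log2FC 1.12, limma adjusted p = 0.0036) and BATF3 (1.63, limma adjusted p = 0.013) were called higher in BxPC-3-GR. FOSB was called lower (-1.07, limma adjusted p = 0.014) and FOS was not called (0.78, limma adjusted p = 0.049). FOSL2 lost its call in that fit (limma adjusted p = 0.052). In CFPAC-1-GR neither FOSB (-0.46, limma adjusted p = 0.098) nor ATF3 (-0.07, limma adjusted p = 0.80) was called in it.

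**Figure D3:**
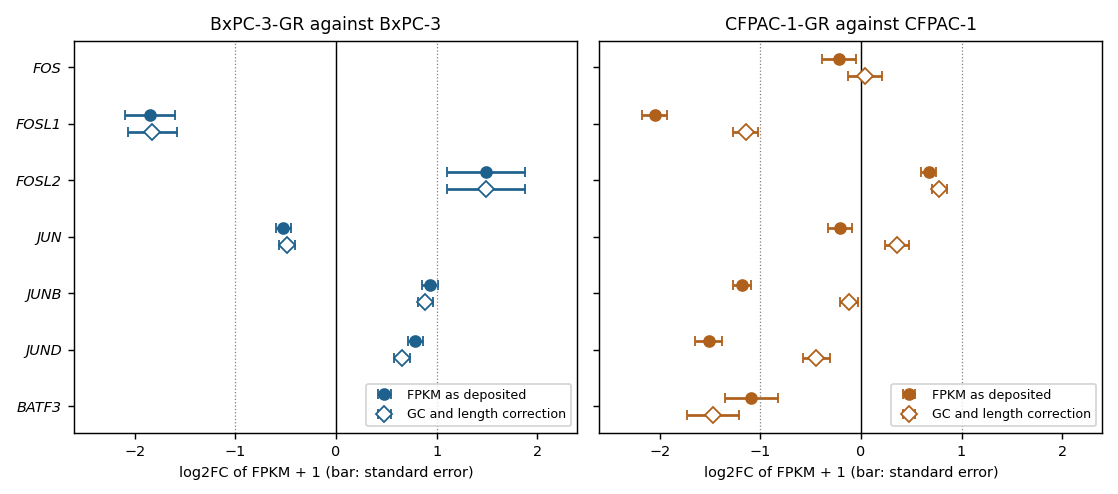
Fitted log2FC with SE of the tested AP-1 members in each resistant line against its parent, with (open) and without (filled) the GC and length correction. FOSL1 lies below 0 in all 4 fits, FOSL2 above 0, and the CFPAC-1-GR values of JUNB and JUND move from -1.18 and -1.52 to -0.12 and -0.45.

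Per length, FOSL1 and FOSL2 made up nearly all FOS-family RNA. FOSL1 was 76.9% ± 9.8 of the summed FPKM of the 4 FOS genes in BxPC-3 and 24.5% ± 7.1 in BxPC-3-GR (SD, n = 3). It was 89.8% ± 0.63 in CFPAC-1 and 57.3% ± 2.6 in CFPAC-1-GR. FOSL2 exceeded FOSL1 in every BxPC-3-GR library, with a ratio of 2.39 to 4.96, and in no library of the other lines, where the ratio was 0.0909 to 0.773. The FOS-family sum was 40.5 ± 7.6 FPKM in BxPC-3 and 32.7 ± 2.4 FPKM in BxPC-3-GR, and 94.9 ± 13.3 FPKM in CFPAC-1 and 34.5 ± 2.0 FPKM in CFPAC-1-GR.

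In the JUN family, JUNB led in both BxPC-3 lines, at 70.7% ± 1.3 in BxPC-3 and 83.1% ± 1.4 in BxPC-3-GR. JUND was 41.02% ± 1.3 of the family in CFPAC-1, and JUN 41.7% ± 1.3 in CFPAC-1-GR, the largest shares there. The shares, sums and ratios of both families are without the GC and length correction. JUN has a lower GC content (56.7%) than JUNB (64.9%) and JUND (69.7%), and whether JUN would lead in CFPAC-1-GR with the correction was not tested. The JUN-family sum was 101 ± 7.5 FPKM in BxPC-3 and 165 ± 2.2 FPKM in BxPC-3-GR, and 167 ± 10.7 FPKM in CFPAC-1 and 83.6 ± 9.7 FPKM in CFPAC-1-GR. The ratio of JUN-family to FOS-family FPKM was 2.54 ± 0.37 in BxPC-3 and 5.07 ± 0.34 in its resistant line. In CFPAC-1 it was 1.78 ± 0.18, and 2.42 ± 0.22 in CFPAC-1-GR. It was higher in every resistant library than in every library of its parent.

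**Figure D4:**
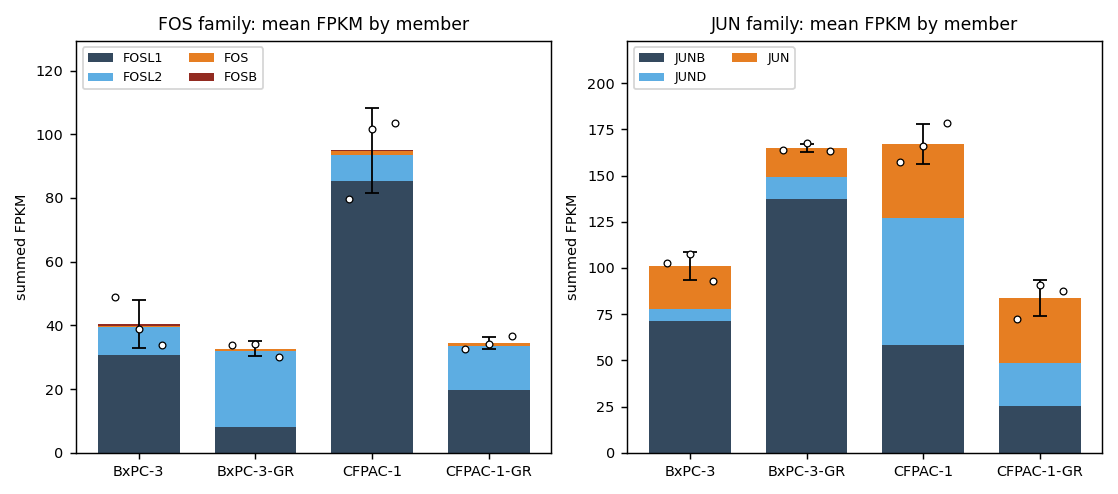
Summed FPKM of the FOS family (FOSL1, FOSL2, FOS, FOSB) and of the JUN family (JUNB, JUND, JUN) by line, on axes that start at 0, with the mean of each gene stacked, 1 point for the sum in each library and bars for the SD of the sum (n = 3). FOSL2 makes up most of the FOS-family bar only in BxPC-3-GR, and JUNB is the largest JUN-family part only in the BxPC-3 lines. The values are without the GC and length correction.

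Between the parental lines, 3 of the 6 members in the fit were called, against 44.5% of 11842 genes, and these were higher in CFPAC-1, where 19.8% of genes were called higher. One of them, BATF3, reached the minimum only through CFPAC-1 and had to differ, so it supports no count, and without it 2 of 5 were called. JUND was 10.4-fold higher by its mean (log2FC 3.20 ± 0.06, SE, limma adjusted p = 1.3e-07) and FOSL1 2.78-fold higher (1.44 ± 0.13, SE, limma adjusted p = 4.3e-05). The fitted log2FC of BATF3, as a description, was 3.24. JUN (0.78) and JUNB (-0.29) were under the size threshold, and FOSL2 had a log2FC of 0.07 ± 0.39 (SE, limma adjusted p = 0.88). With the GC and length correction FOSL1 was 0.39 and not SDE, JUNB was -1.49 and SDE, and JUND was 1.97 and SDE. The parental libraries did not overlap for 5 of the 6 members in the fit, against 85.6% of tested genes, and FOSL2 was the exception. BATF3 is 1 of the 5, and as it had to differ it adds nothing to this count. The 3 untested members did not overlap either, but the share covers tested genes only, so they support no count. The labels and the methods give different media for CFPAC-1, and medium and line cannot be told apart.

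Between the resistant lines, 4 of the 6 members in the fit were called, 3 higher and 1 lower in CFPAC-1-GR, against 17.1% of 12330 genes, 10.3% higher and 6.80% lower. BATF3, 1 of the 3, passed the minimum only through CFPAC-1-GR, and without it 3 of 5 were called. JUNB was 5.45-fold lower in CFPAC-1-GR (log2FC -2.40 ± 0.07, SE, limma adjusted p = 8.3e-07). JUN was 2.21-fold higher (1.10 ± 0.10, SE, limma adjusted p = 1.3e-04) and FOSL1 had a log2FC of 1.24 ± 0.24 (SE, limma adjusted p = 0.0036). The fitted log2FC of BATF3, as a description, was 1.79. The FOSL1 call was lost without replicate 3 of BxPC-3-GR (0.95), and JUND, at 0.89, was called without replicate 1 of CFPAC-1-GR (1.031). The JUN call was lost with the GC and length correction (0.94), under scaling by the upper quartile (0.97) or by the median of ratios (0.92). FOSL2 was lower in CFPAC-1-GR (-0.75, limma adjusted p = 7.8e-05), under the size threshold. The libraries did not overlap for 6 of the 6 members in the fit, against 71.0% of tested genes. BATF3 is 1 of the 6, and as it passed the minimum only through CFPAC-1-GR it adds nothing to this count. Of the 3 untested members ATF3 overlapped, and as the share covers tested genes only, these 3 support no count. These comparisons use the same libraries as those above and are not independent of them.

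In the order of mean levels, FOSL1 and JUN ran from CFPAC-1 at the top to BxPC-3-GR at the bottom, and JUNB from BxPC-3-GR to CFPAC-1-GR. JUND and BATF3 were highest in CFPAC-1, followed by CFPAC-1-GR, BxPC-3-GR and BxPC-3, with no overlap between neighbours. For FOSL2 the order was BxPC-3-GR, CFPAC-1-GR, BxPC-3 and CFPAC-1. CFPAC-1-GR, BxPC-3 and CFPAC-1 overlapped as neighbours in that order. JUN and FOS did not separate CFPAC-1 from CFPAC-1-GR, ATF3 did not separate its upper 3 lines, and FOSB, highest in BxPC-3, did not separate BxPC-3-GR from CFPAC-1.

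The genes whose log2 levels were most like a member's over the 12 libraries, among 12210 tested genes, are given as a description, since the 12 points are 4 lines of 3 libraries. For FOSL1 they were SCARB1, FZD8 and SRM, with Pearson's r of 0.991, 0.990 and 0.989. For JUN they were NES, SLC20A1 and AC102953.2 (0.992, 0.983 and 0.983), for JUNB S100P, PORCN and VILL (each 0.991), and for JUND TRIM8, REEP6 and CDR2L (0.997, 0.997 and 0.996). For BATF3 they were SNPH, VPS26B and SNAP47 (0.991, 0.990 and 0.990). FOSL2 had no gene as close, with PET117 at 0.895, USP54 at 0.891 and ZSCAN20 at 0.884.

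Genes around AP-1 were described by lists. Of 15 basic leucine zipper partners, 9 were tested in BxPC-3-GR, with 2 higher and none lower, against 4.14% and 3.62% of all genes. Their median log2FC was 0.26, where all genes had a median of -0.05. The higher partners were MAFF (1.28, limma adjusted p = 0.0077), a small MAF protein, and BATF (1.08, limma adjusted p = 1.4e-04). In CFPAC-1-GR 10 were tested, with 2 higher, 1 lower and a median of -0.26. Of all genes tested there, 20.5% were called higher and 11.7% lower, and the median was 0.13. NFE2L2, the antioxidant regulator NRF2 (1.44, limma adjusted p = 8.8e-06), and ATF2 (1.43, limma adjusted p = 8.1e-05) rose there, and MAFF fell (-1.62, limma adjusted p = 0.0025). ATF2 averaged 0.740 FPKM in CFPAC-1 and passed the minimum only through CFPAC-1-GR, so its call supports no count. None of these 10 was SDE after the GC and length correction, which left 8.69% of all genes called, 4.70% higher and 3.98% lower.

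Of 22 kinases and factors upstream of AP-1, 17 were tested in BxPC-3-GR and none was SDE, against 7.76% of all genes, with a median of 0.21. In CFPAC-1-GR 18 were tested, with 4 higher, 4 lower and a median of -0.23, against 20.5% of all genes higher and 11.7% lower. MAP2K4, 1 of the 4 higher genes, was under the size threshold with both other scalings (0.89 and 0.83) and without replicate 1 of CFPAC-1 (0.997). RPS6KA3, the kinase RSK2 (2.41, limma adjusted p = 6.3e-06), and the ETS factors ELK4 (2.10, limma adjusted p = 1.1e-05) and ELK3 (1.72, limma adjusted p = 2.4e-04) were among the higher genes. MAP2K4 and ELK4 averaged 0.41 and 0.96 FPKM in CFPAC-1 and passed the minimum only through CFPAC-1-GR, so their calls support no count. MAP2K3 (-1.48, limma adjusted p = 1.8e-05), MAP2K2, the kinase MEK2 (-1.36, limma adjusted p = 1.1e-05), and MAPK3, the kinase ERK1 (-1.18, limma adjusted p = 5.6e-05), were among the lower genes. With the GC and length correction 1 of the 18, RPS6KA3, was SDE, at 1.13, against 8.69% of all genes.

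Of 15 immediate-early genes, which answer growth signals alongside FOS, 12 were tested in each pair. Of all genes tested, 4.14% were called higher and 3.62% lower in BxPC-3-GR, and 20.5% higher and 11.7% lower in CFPAC-1-GR. In BxPC-3-GR EGR1 fell (-1.07, limma adjusted p = 1.4e-04), a call lost without replicate 2 of BxPC-3 (-0.98), no gene rose, and the median was 0.21. In CFPAC-1-GR DUSP5, an ERK phosphatase (-1.93, limma adjusted p = 9.9e-06), IER2 (-1.71, limma adjusted p = 0.0057) and ZFP36 (-1.18, limma adjusted p = 0.033) fell, none rose, and the median was -0.15. IER2 averaged 0.770 FPKM in CFPAC-1-GR and passed the minimum only through CFPAC-1, so its call supports no count. The ZFP36 call was lost without replicate 2 of CFPAC-1 (-1.04, limma adjusted p = 0.090), without replicate 3 of CFPAC-1 (-0.94) and without replicate 1 of CFPAC-1-GR (-0.81), and with no minimum (limma adjusted p = 0.092). After the correction DUSP5 was lower (-1.34) and EGR1 higher (1.09) in CFPAC-1-GR, and the others were not SDE. With it, 3.98% of all genes were called lower there and 4.70% higher.

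Of 24 genes known as AP-1 targets, 19 were tested in BxPC-3-GR, with 5 higher, 4 lower and a median of 0.08. Of all genes tested there, 4.14% were called higher and 3.62% lower. MMP10 and MMP13 averaged 0.408 and 0.773 FPKM in BxPC-3, and VIM 0.813 FPKM in BxPC-3-GR. They passed the minimum only through the other line of the pair, so their calls support no count. CXCL8, the neutrophil chemokine interleukin-8, had 19.3 ± 1.7 FPKM in BxPC-3 and 140.0 ± 9.4 FPKM in BxPC-3-GR (log2FC 2.80, limma adjusted p = 4.6e-06). The metalloproteinases MMP7 (2.54, limma adjusted p = 2.6e-05) and MMP10 (2.47, limma adjusted p = 2.2e-05) also rose. MMP1, the interstitial collagenase, fell from 228.9 ± 4.8 to 21.4 ± 1.4 FPKM (-3.36, limma adjusted p = 1.3e-06). VIM, the mesenchymal filament vimentin (-2.06, limma adjusted p = 2.9e-05), and PLAUR, the urokinase receptor (-1.28, limma adjusted p = 1.2e-04), fell as well. PTGS2 and MMP13 were the other genes that rose, and AXL, a receptor tyrosine kinase, the other called lower. AXL lay at the threshold (-1.003), and its call was lost with both other scalings (-0.95 and -0.997), with the GC and length correction (-0.99), without replicate 1 (-0.99) or 2 (-0.98) of BxPC-3 and without replicate 3 of BxPC-3-GR (-0.98).

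In CFPAC-1-GR 16 of these targets were tested, with 3 higher, 7 lower and a median of -0.86, against 20.5% of all genes higher and 11.7% lower. PTGS2, a prostaglandin synthase (1.75, limma adjusted p = 8.0e-06), the adhesion receptor CD44 (1.22, limma adjusted p = 1.5e-05) and CXCL8 (1.07, limma adjusted p = 9.9e-05) rose. With median-of-ratios and upper-quartile scaling CD44 (0.92 and 0.80) and CXCL8 (0.78 and 0.66) were not called, nor was CXCL8 without replicate 3 of CFPAC-1 (0.96). TGFB1 (-2.04, limma adjusted p = 6.3e-06), the membrane metalloproteinase MMP14 (-2.00, limma adjusted p = 1.0e-05) and HMGA1 (-1.91, limma adjusted p = 7.4e-06) fell. After the GC and length correction 0 were higher and 4 were lower, TGFB1, MMP14, PLAU and VIM, with a median of -0.52, against 3.98% of all genes lower. MMP1 was below the minimum in both CFPAC-1 lines, at 0.409 ± 0.098 and 0.450 ± 0.060 FPKM.

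**Figure D5:**
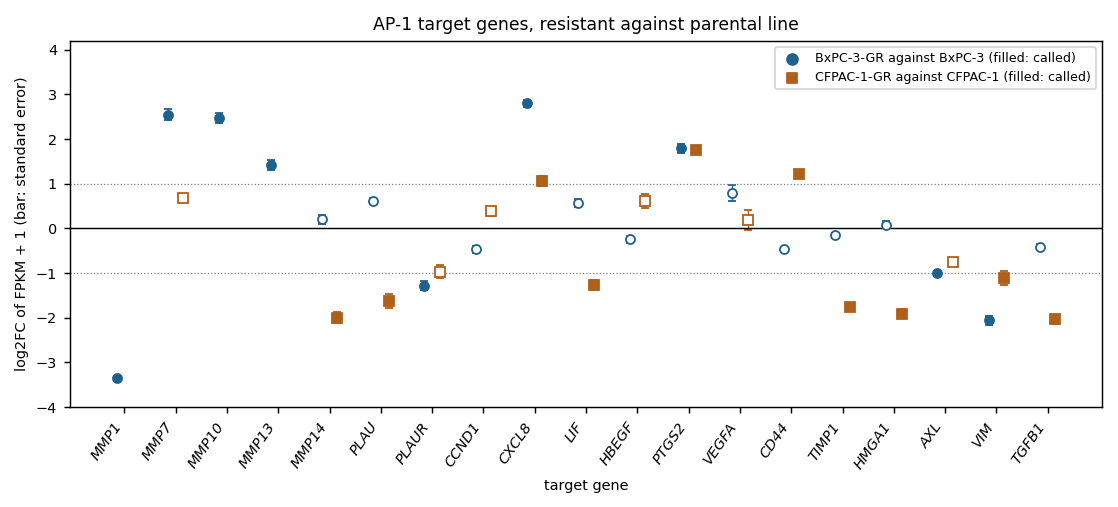
Fitted log2FC of each tested AP-1 target in each resistant line against its parent, with SE as bars, filled points for SDE genes and dotted lines at 1 and -1. CXCL8 and PTGS2 lie above 1 and VIM below -1 in both, while MMP1, at -3.36, was tested in BxPC-3-GR alone. With the GC and length correction, not drawn here, CXCL8 (0.013) and PTGS2 (0.51) were not SDE in CFPAC-1-GR and VIM (-1.51) was.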

How the data were processed

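RNA-seq libraries of 4 lines, 3 each, were analysed. The authors deposited 1 table of FPKM values; per the methods the genome was GRCh38 with Ensembl release 91, and their own differential test was a count model not used here. The submitters' processing notes list Trimmomatic 0.27, FastQC 0.10.1 and TopHat2 2.0.8 and the builds hg19 and GRCh38, with no roles. The program that made the FPKM values, and whether it used strand, is not given in the sources used here. FPKM is not a count, so no count test was the main result. Positions, GC content and lengths were read from the annotation of GENCODE release 29 for 58039 of 58302 genes. The depths of 12600000 to 25200000 fragments were inferred from the steps of low values, and implied fragments are approximate for genes with several transcripts.

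Each comparison was fitted with limma 3.58.1 (R 4.3.3, Python 3.11.15) on log2(FPKM + 1), on genes whose FPKM averaged 1 or more in the libraries fitted, with Benjamini-Hochberg adjustment over all genes tested. SDE means that the adjusted p was below 0.05 and log2FC exceeded 1 in size. The difference between the responses used all 12 libraries. The GC and length correction subtracted splines of 5 degrees of freedom. Every member is named, along with up to 3 SDE genes with the largest change in each direction from each list, and the 3 genes most like each member. From the lists of targets and of upstream kinases and factors, 1 gene each is not reported here. The members and lists were chosen with earlier results of these data known. The fits were tested on simulated data. Alternatives were 2 other scalings, a pseudocount of 0.1, no minimum, limma's treat test and trend option, 1 fit of all 12 libraries, a replicate block, the correction, and leaving out each library.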

Additional observations from a re-analysis of the deposited data

Results flagged for a closer look

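Of the AP-1 members, JUNB and JUND responded differently in the resistant lines by a test of the difference itself. The log2FC in CFPAC-1-GR minus that in BxPC-3-GR was -2.11 for JUNB and -2.30 for JUND. BATF3 was also called, at -1.45, but it passed the minimum only through the CFPAC-1 lines, so its value is a description. JUNB and JUND are GC-rich, and with the GC and length correction the differences of JUNB, JUND and BATF3 were -0.98, -1.08 and -1.87. The correction left JUNB below the SDE size threshold.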

How the results depend on the processing

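The number of AP-1 members called in BxPC-3-GR (2 of 5 tested) was 0 of 5 with treat, against 380 of 11710 genes. It was 4 of 9 with a pseudocount of 0.1 and no minimum, against 2769 of 28777 genes. With each library left out it was 1 to 2, against 849 to 965 genes. In CFPAC-1-GR (4 of 7 tested) it was 2 of 7 with the GC and length correction, against 1045 of 12030 genes. The replicate block added to the correction left it at 2, against 1048 genes. With treat it was 2 of 7 (JUNB and BATF3 lost), against 2059 of 12051 genes. With a pseudocount of 0.1 and no minimum, 6 of 9 were called between the parental lines (3 of 6), against 11018 of 29350 genes. In that setting 5 of 9 were called for the difference between responses (3 of 6), against 9558 of 32947 genes. Between the resistant lines (4 of 6) it was 2 of 6 with treat (FOSL1 and JUN lost), against 1265 of 12330 genes. BATF3 is in the counts between the lines and for the difference, where it supports no count.

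SDE genes in BxPC-3-GR (909) numbered 1429 with a pseudocount of 0.1, 380 with treat and 2769 with no minimum as well. With the GC and length correction, then with the replicate block added, they numbered 1045 and 1048 in CFPAC-1-GR (3880), 3143 and 3142 between the parental lines (5274), and 2239 and 2238 for the difference between responses (4643). With treat they numbered 2059 in CFPAC-1-GR, 1265 between the resistant lines (2111) and 2631 for the difference. With a pseudocount of 0.1 and no minimum, added after seeing the data, they numbered 8509, 11018, 6565 and 9558 in CFPAC-1-GR, between the parental lines, between the resistant lines and for the difference.

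Values that changed sign with the GC and length correction, with and without the replicate block, were FOS (0.045) and JUN (0.36) in CFPAC-1-GR, FOSL2 between the parental lines (-0.17) and FOSL1 in the difference (0.71). FOSL2 between the parental lines ranged from -0.18 to 0.54 as libraries were left out, with -0.16 without replicate 3 of BxPC-3. JUNB between the parental lines was 0.0065 with upper-quartile scaling, and JUN in the difference was -0.039 with median-of-ratios and -0.15 with upper-quartile scaling. In CFPAC-1-GR these scalings moved the median of all genes by -0.25 and -0.36 and the share of SDE genes that were higher from 63.7% to 42.9% and 35.4%. In the difference that share went from 62.1% to 43.7% and 39.1%, between the parental lines from 44.6% to 50.6% and 57.3%, and between the resistant lines from 60.3% to 47.4% and 50.9%. The cause was not tested.

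Same-numbered libraries of a pair had correlations of -0.13 to 0.0895 in their deviations from the group means, and 2 of 6 resistant libraries correlated best with their own number, so the numbers were not treated as pairs. The replicate block alone changed no member's call.

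Over these alternatives, 494 log2FCs of members kept their direction and their side of the SDE threshold, 25 lost a call, 7 gained one and 13 changed sign, and 307 list counts kept within 1.5 times their value while 53 did not.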
